A study of Mus musculus with 24 samples.

Results

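The hearts described here were taken 0.5 h after blood flow was restored to heart muscle that had been ischemic for 45 min, and they are compared with hearts after sham surgery. Members were chosen by the treatment label alone, which gave 3 libraries of 0.5 h of reperfusion and 3 of sham, 6 of the 24 libraries of the series. All mice were wild-type C57BL/6, an inbred laboratory strain, and the tissue was whole heart frozen at once. The labels used here give no age. The 3 libraries taken after ischemia with no reperfusion and the 3 taken at 1 h of reperfusion are used as neighbours in time. Sham animals had the operation without ischemia, so ischemia and reperfusion together separate the 0.5 h hearts from them, and the ischemia libraries are the only ones that carry the first without the second. Whether the 3 libraries of each group are 3 different hearts is not stated. The gene tests take as their error the spread within groups over all 24 libraries, and that spread may be partly technical.

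When flow returns to ischemic heart muscle, the cells meet oxygen, calcium and mechanical load again within minutes. The first genes to answer such a stimulus are immediate early genes, which are switched on by transcription factors already present in the cell, need no new protein, and make short-lived messages that often encode transcription factors themselves. Misfolded protein separately releases heat shock factor 1, which trimerises and binds heat shock elements in front of the chaperone genes, while NF-kappaB drives the genes of chemokines, cytokines and endothelial adhesion molecules that draw white blood cells to the tissue.

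Between 13407465 and 16185615 uniquely mapped reads were counted in genes in the 6 libraries, so that 3 reads corresponded to 0.185 to 0.224 CPM (reads scaled to a total of 1000000). All CPM values of single genes below are on the TMM-normalised scale, in the order of replicates 1, 2 and 3. Values after ± are approximate standard errors of log2 fold changes. Each is the absolute log2 fold change divided by the square root of the F statistic of its test. The 0.5 h libraries differed from sham in makeup as well as in single genes. Reads on mitochondrially encoded genes made up 20.02% to 22.3% of the total at 0.5 h and 28.9% to 33.2% in sham, reads marked as duplicates 44.4% to 46.1% and 50.1% to 54.4%, and multiply mapped reads 13.4% to 14.4% and 18.5% to 20.1%. None of these ranges overlapped, and each difference reached p = 0.1 in a two-sided exact permutation test, the smallest value that 3 against 3 samples can give. The 3 libraries of 0.5 h also differed from each other, about as much as the sham libraries did. By a chi-square per degree of freedom over the counts of tested genes, pairs of 0.5 h libraries differed by 9.07 to 12.7. Pairs of sham libraries differed by 7.40 to 12.2. Replicate 1 of 0.5 h was nearest to 0.5 h replicate 3 (9.07), replicate 2 to ischemia replicate 3 (8.43) and replicate 3 to replicate 2 of 1 h (5.43). Defining markers of ventricular muscle were high in every library, with a summed level of 76363 to 79700.0 CPM at 0.5 h and 69979 to 73283 CPM in sham over 16 genes. In bulk tissue, fewer cells of a type and less RNA per cell cannot be told apart.

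Of 15128 genes tested with edgeR's quasi-likelihood test, 1802 (11.9%) were called at an adjusted p under 0.05. Of these, 1124 genes (7.43%) were higher and 678 (4.48%) were lower at 0.5 h than in sham, and the median log2 fold change over all tested genes was -0.0092. Large changes were mostly rises: 326 genes (2.15%) were called at least 2-fold higher and 116 (0.767%) at least 2-fold lower. Calls by edgeR are those of this main fit, to all 24 libraries, unless another setting is named. The shares of 7.43% higher and 4.48% lower are the background for every count of called list members below. Leaving out 1 library left between 603 calls (without 0.5 h replicate 1) and 1093 (without 0.5 h replicate 2), with 766, 904 and 664 calls without sham replicates 1, 2 and 3 and 771 without 0.5 h replicate 3. Scaling by library totals alone moved the median of all genes by 0.128 on the log2 scale and gave 1629 genes higher and 230 lower. The 16 largest rises among genes at 5 CPM or more were led by Fosb, Hspa1b, Hspa1a, Fos, Cxcl2, Atf3, Socs3, Junb, Ptx3 and Ptgs2, and the 8 largest falls held 3 mitochondrial transfer RNA genes, mt-Ts2, mt-Ti and mt-Tw.

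**Figure D1:**
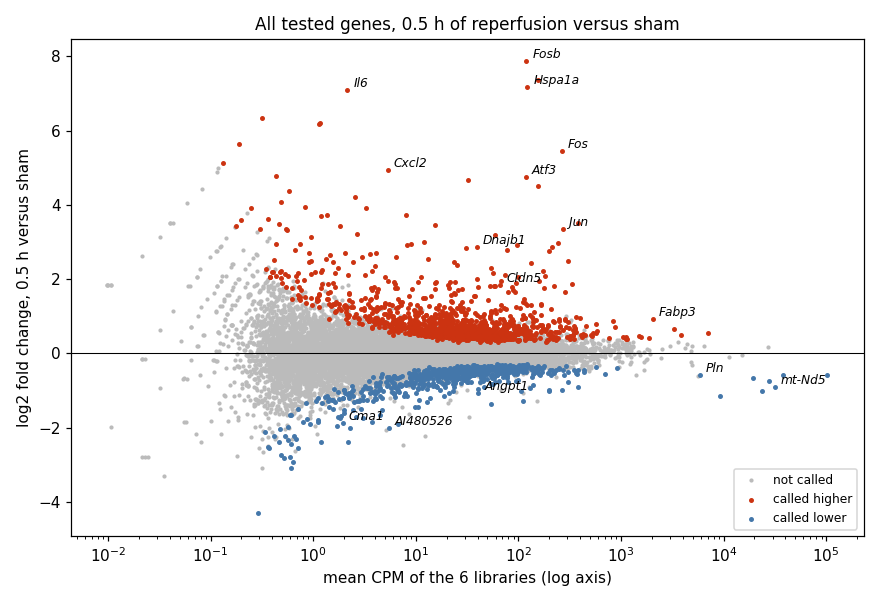
Log2 fold change of every tested gene at 0.5 h of reperfusion versus sham, plotted against the mean CPM of the 6 libraries on a log axis. Red points are the 1124 genes called higher and blue points the 678 called lower. The called rises reach 7.86 on the log2 scale (Fosb), whereas 116 of the 678 called falls lie below -1. The called genes of the mitochondrial genome lie at the far right below 0.

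The AP-1 factors, basic leucine zipper proteins that pair as Fos-Jun dimers and drive the second wave of stress transcription, included the largest rise at 0.5 h. Of 14 tested AP-1 and Maf genes, 9 were called higher and 0 lower, against 7.43% of all tested genes called higher, and their median log2 fold change was 1.39. Fosb stood at 0.771, 1.03 and 1.28 CPM in the 3 sham libraries and at 222, 40.0 and 449.6 CPM at 0.5 h, a log2 fold change of 7.86 ± 0.82 (adjusted p = 4.27e-06). The lowest 0.5 h library was still far above the highest sham library, but it was 11.2 times below the highest 0.5 h library. Fos, the partner of Jun in the classical AP-1 dimer, went from 7.64, 8.77 and 19.5 CPM in sham to 558, 151 and 852 CPM (5.45 ± 0.50, adjusted p = 1.12e-06). Jun measured 30.8, 49.0 and 65.9 CPM in sham and 468, 216 and 804 CPM at 0.5 h (3.35 ± 0.37, adjusted p = 7.67e-06). Junb, a Jun relative that also pairs with Fos proteins, measured 10.1, 9.38 and 19.9 CPM and 330.0, 123 and 429.5 CPM (4.50 ± 0.43, adjusted p = 1.51e-06). In all 4 genes the groups did not overlap, and replicate 3 was the highest and replicate 2 the lowest of the 0.5 h libraries. Over all tested genes, every 0.5 h library lay above every sham library in 20.8% and below in 21.1%. Genes named for their calls tend not to overlap, so lack of overlap is no separate support, here or below. Jund (2.06), Maff (1.93), Fosl2 (1.70) and Mafk (1.09) were called as well, while Fosl1, Batf, Batf2, Batf3 and Mafg were not called, at log2 fold changes between -0.60 and 0.34.

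The upstream bases of the 3 transcription factor genes with the largest rises are shown because each holds the 5-base core of the cyclic AMP response element, the site bound by CREB and ATF factors. They are the 250 bases in front of the RefSeq start on GRCm38.p6, written 5' to 3' on the strand of the gene, with the core TGACG (or its reverse complement) in capitals: Fos at chr12:85473640-85473889 on the plus strand with matches that begin 129 and 66 bases before the start, Fosb at chr7:19310046-19310295 on the minus strand with 1 match that begins 60 bases before it, and Atf3 at chr1:191183334-191183583 on the minus strand with 1 match that begins 7 bases before it.
Fos: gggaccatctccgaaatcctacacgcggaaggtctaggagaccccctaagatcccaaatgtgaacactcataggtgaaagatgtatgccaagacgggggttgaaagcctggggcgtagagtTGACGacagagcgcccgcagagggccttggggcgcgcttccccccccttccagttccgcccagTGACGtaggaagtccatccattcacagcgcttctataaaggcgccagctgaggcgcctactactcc
Fosb: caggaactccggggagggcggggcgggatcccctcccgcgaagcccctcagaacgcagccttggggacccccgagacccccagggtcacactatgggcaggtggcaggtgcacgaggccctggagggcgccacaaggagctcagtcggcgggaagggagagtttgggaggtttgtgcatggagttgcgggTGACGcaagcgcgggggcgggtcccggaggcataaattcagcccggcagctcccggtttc
Atf3: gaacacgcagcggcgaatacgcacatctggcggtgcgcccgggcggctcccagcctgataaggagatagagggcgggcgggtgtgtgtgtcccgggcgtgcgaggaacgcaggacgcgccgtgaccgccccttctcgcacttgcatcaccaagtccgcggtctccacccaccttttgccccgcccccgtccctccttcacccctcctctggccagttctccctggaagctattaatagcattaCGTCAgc
Over all 32851 promoter windows of 300 bases, 20.8% held this core on either strand, against 53.1% of the 49 windows of the AP-1, Egr, Nr4a and other immediate early genes (38 of 53 listed genes had a window). In the 51 windows of heat shock protein genes the share was 52.9%. The full element TGACGTCA, which contains the core, stood in 4.08% of the early gene windows and 1.79% of all windows. The CArG box, the site of serum response factor, stood in 12.2% of the early gene windows and 1.63% of all windows. The early gene matches were 6 windows of 3 genes, and 4 of these windows belonged to 1 gene of the Egr list. A match is a description of letters and no evidence that a factor was bound.

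Atf3, a stress-induced repressor of the ATF family that the study's title names, rose in every 0.5 h library. It stood at 8.86, 8.08 and 8.47 CPM in sham, 48.9, 41.2 and 86.7 CPM after ischemia alone, 227, 55.4 and 404 CPM at 0.5 h and 564, 468 and 366 CPM at 1 h. Against sham the log2 fold change at 0.5 h was 4.75 ± 0.56 (adjusted p = 1.59e-05), and the call held under every setting tried. The sham libraries lay within 1 CPM of each other, whereas 0.5 h replicate 2 lay inside the range of the ischemia libraries and replicates 1 and 3 above it. Of the 13 tested ATF and CREB genes, 3 were called higher and 1 lower: besides Atf3 these were Atf4 (1.17), the main effector of the integrated stress response, Atf5 (0.72), and Atf2, which fell from 38.9, 35.1 and 38.4 CPM to 26.7, 27.2 and 28.4 CPM (-0.45 ± 0.14, adjusted p = 0.0407). The call on Atf2 was lost when any 1 of the 6 libraries was left out, and Creb1 and Crem were not called, at -0.27 and -0.056.

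The Egr and Nr4a families were called as well. All 3 tested Egr genes, zinc finger activators, were called higher, and so were all 3 Nr4a genes, orphan nuclear receptors. Egr1 went from 29.5, 52.1 and 103 CPM in sham to 723, 265 and 1114 CPM at 0.5 h (3.51 ± 0.54, adjusted p = 0.000383). Egr3 was at 0.193, 0.274 and 0.32 CPM and 4.19, 2.21 and 8.22 CPM (4.1997 ± 0.57), and Egr2 at 1.22, 2.12 and 2.96 CPM and 12.8, 7.66 and 27.1 CPM (2.94 ± 0.45). Nr4a1 rose from 29.2, 47.9 and 77.4 CPM to 401, 169 and 478 CPM (2.77 ± 0.50, adjusted p = 0.0015). The call on Nr4a3 (log2 fold change 1.76 ± 0.43) was lost without 0.5 h replicate 3 and without sham replicates 1 or 3. Nab1 and Nab2, corepressors that bind Egr factors, were not called (-0.19 and 0.93), and Egr4, with 0 reads in sham and 8 at 0.5 h, lay below the filter on low counts.

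Among 13 Kruppel-like factors, a family of zinc finger proteins, 4 were called higher and 0 lower. Klf2, which in endothelium answers to the shear of flowing blood, measured 33.6, 41.5 and 47.8 CPM in sham, 59.3, 73.3 and 95.7 CPM after ischemia and 229, 135 and 304 CPM at 0.5 h (2.44 ± 0.26, adjusted p = 6.29e-06). Klf4 (1.64 ± 0.27), Klf6 (1.05 ± 0.25) and Klf16 (0.96 ± 0.28, not called when any 1 library other than sham replicate 1 was left out) were the others, while Klf15, a regulator of metabolism in heart muscle, was not called at -0.26. Without 0.5 h replicate 3 the count of called Kruppel-like factors was 2.

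Of 30 further immediate early genes, 22 were called higher and 0 lower, with a median log2 fold change of 1.39. Ier5, a small nuclear protein linked to the heat shock response, rose from 10.2, 9.86 and 15.1 CPM to 106, 54.3 and 161 CPM (3.20 ± 0.38, adjusted p = 1.99e-05), and Ier2 from 18.7, 16.1 and 24.6 CPM to 150.4, 62.9 and 194 CPM (2.78 ± 0.30). Myc (1.54), Rnd1 (3.23), Arc (2.91) and Gadd45b (1.61) were also called. The call on Arc was lost without 0.5 h replicate 3. Srf, the factor that binds the CArG box, was not called at 0.57. The 6 lists of early transcription factors and immediate early genes held 44 called rises together, and among these the 0.5 h libraries ran in 1 order: 41 were highest in replicate 3 and 41 were lowest in replicate 2. Over all tested genes replicate 3 was the highest of the 3 in 30.5% and replicate 2 the lowest in 35.4%. Among the 326 genes called at least 2-fold higher, 54.3% were highest in replicate 3 and 67.8% lowest in replicate 2.

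**Figure D2:**
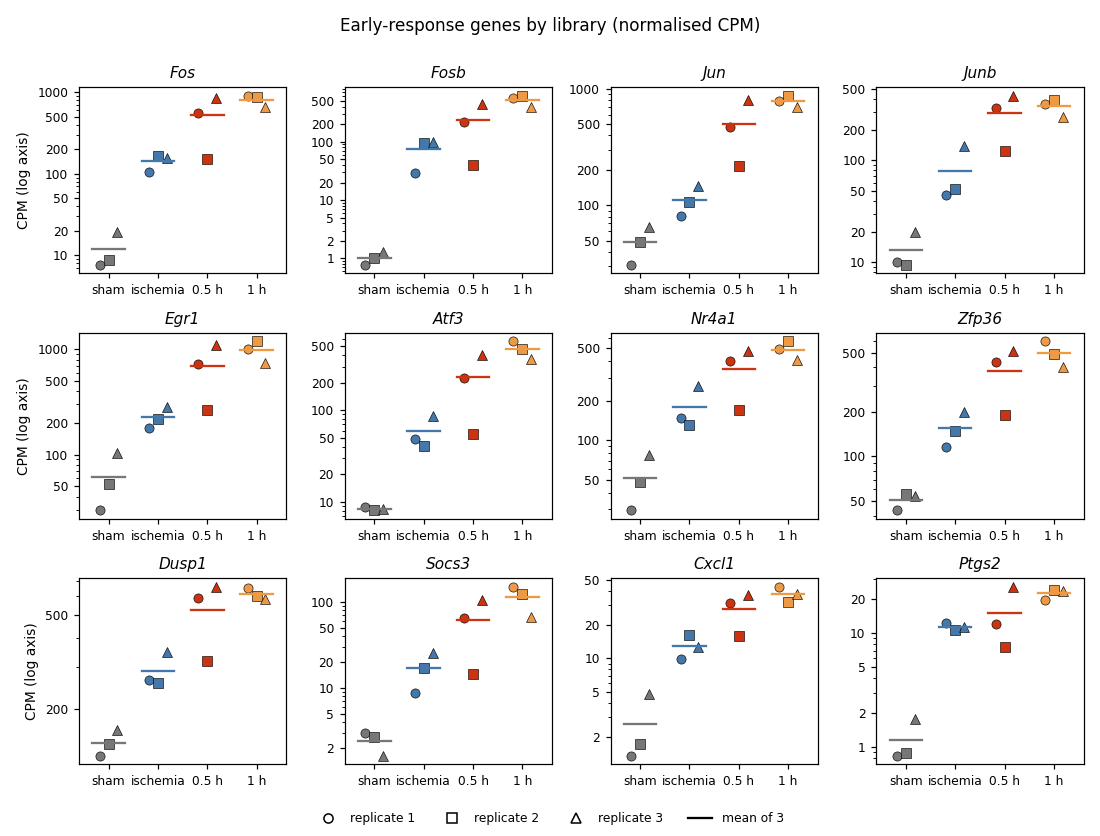
CPM on a log axis of 12 early-response genes in sham, ischemia, 0.5 h and 1 h of reperfusion. Each point is 1 library, its shape the replicate number, and each line the mean of 3. In every panel the 0.5 h points lie above the sham points, and the square, 0.5 h replicate 2, lies lowest among them.

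Genes known to damp the early response rose as well. Of 17 tested MAP kinase phosphatases and Sprouty inhibitors, which switch off the kinases upstream of the early genes, 7 were called higher and 0 lower, and Dusp1, a nuclear phosphatase of p38 and JNK, went from 126, 141 and 162 CPM to 589.8, 320.1 and 659 CPM (1.87 ± 0.31, adjusted p = 0.000727). Of 13 regulators of messenger RNA decay, 6 were called higher and 2 lower. Without 0.5 h replicate 3 the rises were 3. Zfp36, which binds AU-rich messages such as those of cytokines and marks them for decay, stood at 43.3, 55.9 and 54.3 CPM in sham and 429, 189.9 and 508 CPM at 0.5 h (2.88 ± 0.29, adjusted p = 2.18e-06). Btg2, which stimulates removal of the poly(A) tail and is also a p53 target, stood at 37.3, 47.0 and 82.0 CPM and 475, 197 and 637 CPM (2.98 ± 0.43, adjusted p = 0.000176). The groups did not overlap in either gene. The 2 falls were Cnot6 (-0.48) and Cnot7 (-0.50), catalytic subunits of the deadenylase that Btg2 recruits. Neither was called without 0.5 h replicate 1 or without sham replicates 1 or 3.

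Some feedback inhibitors of cytokine signalling were called higher. Socs3, which blocks JAK kinases below the IL-6 family receptors, rose from 2.95, 2.67 and 1.60 CPM in sham to 65.6, 14.6 and 107 CPM at 0.5 h (4.67 ± 0.57, adjusted p = 2.28e-05). Of 20 genes of JAK-STAT feedback and the C/EBP family, 6 were called higher and 1 (Socs4, -0.53) lower, with a median log2 fold change of -0.11. The rises were 3 without 0.5 h replicate 1 or without sham replicate 3, and the falls were 0 when any 1 library was left out. Cebpb (1.81 ± 0.36) and Cebpd (1.80 ± 0.29), leucine zipper factors of the acute-phase response, were called, while Stat3 and the shared receptor subunit Il6st were not (0.06 and -0.10). Of 20 NF-kappaB subunits and inhibitors, 6 were called higher and 0 lower. Nfkbiz, an inducible nuclear cofactor of NF-kappaB, stood at 5.20, 6.78 and 11.2 CPM in sham and 63.7, 22.4 and 77.8 CPM at 0.5 h (2.84 ± 0.36, adjusted p = 3.47e-05), and Tnfaip3, a ubiquitin-editing brake on the pathway, at 4.17, 5.0 and 4.08 CPM and 18.9, 7.96 and 28.2 CPM (2.05 ± 0.35, adjusted p = 0.000974). The subunits Rela, Rel and Nfkb1 were not called (0.35, 0.10 and 0.23), and the list held 3 rises without 0.5 h replicate 3 or without sham replicates 2 or 3.

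The stress-inducible HSP70 genes rose steeply at 0.5 h. Of 17 tested HSP70, HSP90, HSP110 and mitochondrial chaperone genes, only Hspa1a and Hspa1b, the stress-inducible HSP70 genes, were called. Hspa1b was at 3.08, 0.342 and 2.24 CPM in sham, 1.81, 1.13 and 3.35 CPM after ischemia and 67.4, 129 and 736 CPM at 0.5 h, a log2 fold change against sham of 7.35 ± 0.97 (adjusted p = 6.31e-05). Hspa1a was at 2.95, 1.37 and 0.48 CPM, 2.21, 3.11 and 4.39 CPM and 74.8, 86.7 and 565 CPM (7.18 ± 0.87, adjusted p = 2.04e-05). The ischemia libraries overlapped with sham in both genes, every 0.5 h library lay above all of these, and replicate 3 stood far above replicates 1 and 2. The genes are near-identical copies on chromosome 17, and 68.0% of the reads on Hspa1a and 72.3% of those on Hspa1b mapped to 1 place, so the split of reads between them is uncertain. Hsp90aa1 (0.49), Hsph1 (0.52), Hspa8 (0.17) and the mitochondrial chaperones Hspd1 (-0.15) and Hspe1 (0.33) were not called.

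The sequences in front of the Hspa1 pair are shown because both copies hold a match to the heat shock element, the motif of heat shock factor 1. Each is the 250 bases upstream of the RefSeq start on GRCm38.p6, 5' to 3' on the minus strand, at chr17:34972157-34972406 for Hspa1a and chr17:34959239-34959488 for Hspa1b, with the match to the heat shock element GAANNTTC, which reads alike on both strands, in capitals.
Hspa1a: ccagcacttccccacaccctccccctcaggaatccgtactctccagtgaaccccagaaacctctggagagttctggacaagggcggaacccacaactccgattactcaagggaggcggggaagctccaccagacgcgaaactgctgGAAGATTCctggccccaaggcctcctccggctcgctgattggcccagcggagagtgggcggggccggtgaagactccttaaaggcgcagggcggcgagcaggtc
Hspa1b: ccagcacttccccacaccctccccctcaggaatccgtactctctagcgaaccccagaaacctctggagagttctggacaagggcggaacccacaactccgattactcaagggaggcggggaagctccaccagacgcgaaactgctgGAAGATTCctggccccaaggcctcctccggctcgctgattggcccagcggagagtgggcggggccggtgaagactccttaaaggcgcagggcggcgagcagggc
The 2 windows differ at 3 of 250 bases, and in both the element covers the bases from 104 to 97 before the start. The same letters occurred in 7.86% of all promoter windows and in 35.3% of the 51 windows of heat shock protein and co-chaperone genes (37 of 45 listed genes had a window), against 6.12% of the windows of immediate early genes.

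Among 20 HSP40 proteins and other co-chaperones, which hand substrates to HSP70, 8 were called higher and 0 lower, but the count was between 1 and 4 when any 1 of the 6 libraries was left out. Dnajb1, the heat-inducible HSP40, was the largest: 9.37, 7.40 and 11.8 CPM in sham, 12.5, 14.7 and 13.2 CPM after ischemia, 35.3, 16.3 and 157 CPM at 0.5 h and 149, 172 and 110.05 CPM at 1 h (2.87 ± 0.56 against sham, adjusted p = 0.003). Replicate 3 of 0.5 h lay at the level of the 1 h libraries and replicate 2 near that of ischemia. Dnaja1 was raised mainly in replicate 3, at 64.5, 65.6 and 149.8 CPM against 55.4, 47.2 and 51.7 CPM in sham (0.86 ± 0.26), and its call was lost without replicate 3 and without any 1 sham library. Of 7 small heat shock proteins 3 were called higher: Hspb1, which binds unfolded protein and stabilises actin, rose in all 3 libraries from 158, 123 and 126 CPM to 384, 329.8 and 574 CPM (1.66 ± 0.25, adjusted p = 0.000263), with Hspb2 (0.67 ± 0.16) and Hspb7 (0.45 ± 0.12), while the abundant lens and heart chaperone Cryab was not called (0.31). The call on Hspb2 was lost without 0.5 h replicate 1, and that on Hspb7 without 0.5 h replicates 2 or 3 or sham replicates 2 or 3. None of 4 heat shock factor genes was called by the main edgeR fit or limma-voom, DESeq2 called 1 lower, and 2 had an unadjusted p under 0.05. With the 6 compared libraries fitted alone 1 was called higher and 1 lower. The message of Hsf1 itself measured 29.9, 34.7 and 27.7 CPM in sham and 35.7, 41.8 and 39.3 CPM at 0.5 h (0.34 ± 0.14, adjusted p = 0.102).

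**Figure D3:**
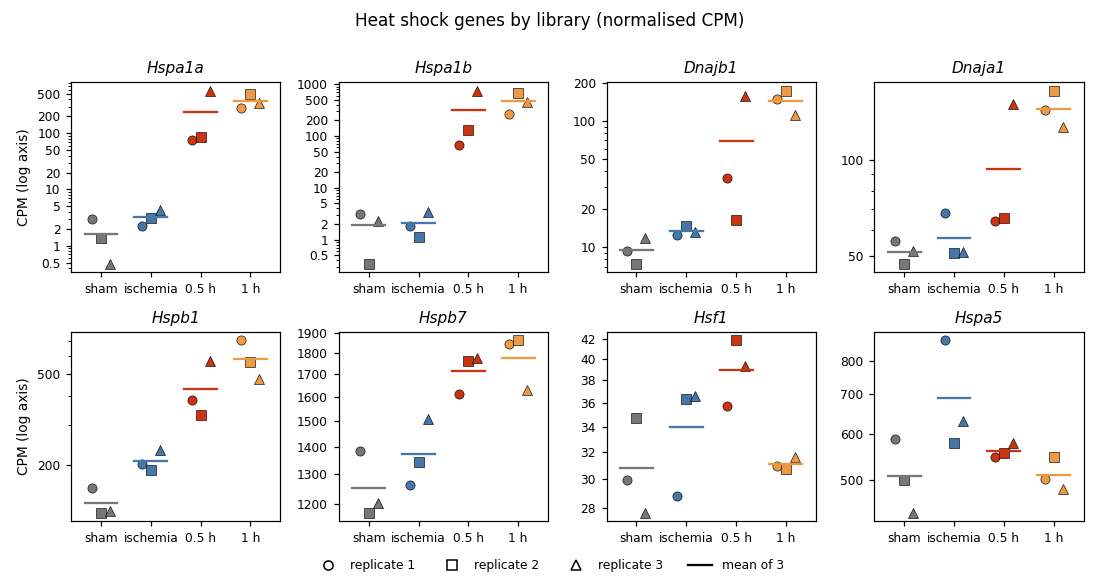
CPM on a log axis of 8 heat shock and endoplasmic reticulum chaperone genes in sham, ischemia, 0.5 h and 1 h of reperfusion. Points are libraries, shapes replicate numbers and lines means of 3. Hspa1a and Hspa1b overlap with sham after ischemia and lie above it in every 0.5 h library, and Dnajb1 and Dnaja1 are raised mainly in 0.5 h replicate 3 (triangle). Hsf1 and Hspa5 were not called.

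Chaperones of the endoplasmic reticulum, which answer to unfolded protein there, did not pass the test. Of 16 such genes 0 were called by the main edgeR fit or limma-voom, DESeq2 called 1 lower, and 3 had an unadjusted p under 0.05. With the 6 compared libraries fitted alone 3 were called higher and 2 lower. Hspa5, the reticulum's HSP70, measured 587, 499 and 439 CPM in sham and 548, 555 and 578 CPM at 0.5 h (0.14 ± 0.16, adjusted p = 0.617). Of 16 tested targets of the integrated stress response, which slows protein synthesis and favours translation of Atf4, 5 were called higher and 0 lower. Ppp1r15a, the subunit that restores protein synthesis, rose from 13.2, 18.8 and 23.0 CPM to 97.3, 46.9 and 128 CPM (2.31 ± 0.31, adjusted p = 7.49e-05). Atf4 went from 34.5, 31.6 and 44.4 CPM to 83.1, 66.2 and 98.3 CPM (1.17 ± 0.20), and Gdf15, a secreted stress signal, from 0.835, 0.89 and 0.799 CPM to 5.29, 2.33 and 7.69 CPM (2.59 ± 0.57). The amino acid synthesis genes of the same response did not pass the test, with Asns at 0.0075, Psat1 at -0.13 and Mthfd2 at -0.13.

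A minority of the tested chemokine and cytokine genes were called higher, several of them from under 1 CPM in sham. Of 9 tested CXC chemokines 2 were called higher, of 12 CC and CX3C chemokines 4, and of 16 cytokines 5, with 0 called lower in each, and the list medians were 0.21, 0.37 and 0.59. Cxcl1, a neutrophil attractant, stood at 1.35, 1.71 and 4.80 CPM in sham and 31.2, 15.98 and 36.5 CPM at 0.5 h (3.46 ± 0.39, adjusted p = 1.08e-05). Cxcl2, a second neutrophil attractant, stood at 0.449, 0.342 and 0.16 CPM and 12.8, 4.19 and 14.0 CPM (4.95 ± 0.58, adjusted p = 1.59e-05). Neither overlapped with sham, and both were lowest in 0.5 h replicate 2. Il6, which signals to STAT3, had 1 read in all 3 sham libraries together and 5.48, 1.08 and 6.33 CPM at 0.5 h, which was 182-fold (exact 95% interval 32.4 to 7241, 210 against 1 reads) higher. Ccl3, which attracts monocytes, was at 2.00, 1.14 and 3.73 CPM at 0.5 h and was 98.2-fold (exact 95% interval 17.3 to 3912, 113 against 1 reads) higher. Il1b, the inflammasome-processed cytokine, measured 0.257, 0.342 and 0.32 CPM in sham and 3.03, 2.03 and 5.09 CPM at 0.5 h (3.44 ± 0.60, adjusted p = 0.00111), and Ccl2, the chief monocyte attractant, 1.09, 1.23 and 0.48 CPM and 5.99, 2.63 and 9.94 CPM (2.69 ± 0.58, adjusted p = 0.0056). In limma-voom the call on Ccl2 was lost and 2 of the 12 CC and CX3C chemokines were called. Osm (3.94) and Tnf (2.71) were called as well, and Il10 (3.34) lost its call without 0.5 h replicates 1 or 3 and without sham replicates 2 or 3. Nlrp3, the inflammasome sensor that activates processing of Il1b, rose from 0.578, 0.548 and 0 CPM to 2.19, 1.32 and 3.43 CPM (2.53 ± 0.52, adjusted p = 0.00424), the 1 called rise among 19 genes of pyroptosis, necroptosis and caspases, of which Gsdme was called lower. These counts of 1 rise and 1 fall were near the shares over all tested genes, 7.43% and 4.48%. The call on Gsdme was lost without 0.5 h replicates 1 or 3 or any 1 sham library, with no filter, by library totals and with the length trend removed. Il33, an alarm signal stored in nuclei, was below every sham library at 1.35, 1.44 and 1.48 CPM against 3.40, 3.15 and 3.68 CPM, but was not called (-1.25, adjusted p = 0.0852). The count of called cytokines was 3 without 0.5 h replicates 1 or 3 and without sham replicates 2 or 3.

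Some markers of neutrophils and of red cells were called higher against sham as well. Of 10 tested neutrophil markers 4 were called higher (S100a9, Csf3r, Mmp8 and Il1r2) and their summed level was 17.6 to 26.9 CPM at 0.5 h, 7.81 to 14.7 CPM in sham and 18.0 to 24.7 CPM after ischemia, a range that overlapped with that of 0.5 h. S100a9, a calcium-binding protein that fills the neutrophil cytosol, was at 4.51, 1.08 and 2.37 CPM at 0.5 h and 0.128, 0.342 and 1.04 CPM in sham (2.45 ± 0.67), and Cxcr2, the receptor of Cxcl1 and Cxcl2, was not called (0.11). The count of called neutrophil markers was 1 without 0.5 h replicate 1 and without sham replicates 1 or 2, and 2 without 0.5 h replicate 3, while DESeq2 called 7 and limma-voom 0. Of 5 tested erythroid genes 3, all globins, were called higher, and the list summed to 219 to 353 CPM at 0.5 h and 79.3 to 186 CPM in sham. The count was 0 without 0.5 h replicate 2 or without sham replicates 1 or 2, and 1 without 0.5 h replicates 1 or 3. With the length trend removed it was 0, and DESeq2 called 2. The 3 globins were highest in replicate 2, where all 5 called cytokines were lowest, and between 11.8% (Hbb-bt) and 60.4% (Hbb-bs) of their reads mapped to 1 place. The part of blood in the chemokine and cytokine rises was not tested.

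The kappaB consensus, the site of NF-kappaB, stood in 36.8% of the 57 promoter windows of the chemokine, cytokine and NF-kappaB lists (46 of 64 listed genes had a window) and in 5.80% of all windows, 14.3% of those of immediate early genes and 11.8% of those of heat shock protein genes. Endothelial adhesion molecules, through which white cells leave the blood, gave 3 called rises and 0 falls among 8 tested genes. Icam1 measured 11.8, 11.4 and 10.7 CPM in sham and 26.7, 19.2 and 28.9 CPM at 0.5 h (1.14 ± 0.21, adjusted p = 0.00224), and Sele, which slows rolling cells, 1.61, 2.05 and 1.52 CPM and 5.74, 2.93 and 8.40 CPM (1.71 ± 0.39). Selp was called (2.19) and Vcam1 was not (-0.19). Without 0.5 h replicate 3 1 of the 3 had an adjusted p under 0.05. Ptgs2, the inducible enzyme of prostaglandin synthesis, was at 0.835, 0.89 and 1.76 CPM in sham, 12.1, 10.6 and 11.3 CPM after ischemia and 12.1, 7.48 and 25.4 CPM at 0.5 h (3.72 ± 0.46 against sham, adjusted p = 2.91e-05). Its 0.5 h values straddled those of ischemia. Of 13 prostaglandin genes the second called one was the receptor gene Ptger4 (0.97 ± 0.31), whose call was lost without 0.5 h replicates 1 or 3 and without sham replicates 1 or 2, while the constitutive enzyme Ptgs1 was not called (-0.056). Of 16 glucocorticoid-induced genes 2 were called higher, against 7.43% of all tested genes. They were Cdkn1a and Errfi1, a brake on the EGF receptor (1.35 ± 0.23), and the call on Errfi1 held under every setting.

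Secreted modifiers of the matrix and of clotting formed a further group. Of 16 matricellular and hyaluronan genes 7 were called higher and 0 lower, with 4 called without 0.5 h replicates 1 or 3 or without sham replicate 2. Ccn1, an integrin ligand induced by stretch and serum, rose from 62.5, 90.8 and 122 CPM to 579.5, 295 and 683 CPM (2.5003 ± 0.39, adjusted p = 0.000517), Thbs1, an activator of latent TGF-beta, from 46.4, 35.8 and 39.0 CPM to 152, 72.9 and 223 CPM (1.89 ± 0.36), and Ptx3, a pattern-recognition protein, from 0.385, 0.411 and 0.4 CPM to 7.99, 1.97 and 8.52 CPM (3.92 ± 0.70, not called by limma-voom). Has1, a hyaluronan synthase, had 1 read in sham, stood at 1.93, 1.97 and 2.84 CPM at 0.5 h and was 96.4-fold (exact 95% interval 17.0 to 3843, 111 against 1 reads) higher. Structural matricellular genes of scar tissue were not called, with Postn at 0.039, Tnc at 0.21 and Spp1 at 0.57. Of 20 proteases, inhibitors and clotting genes 5 were called higher and 0 lower. Adamts1, a matrix protease, measured 61.1, 66.8 and 71.2 CPM in sham and 273, 125 and 367 CPM at 0.5 h (1.94 ± 0.37, adjusted p = 0.00262). Without 0.5 h replicate 3, 2 of the 5 were called, and without 0.5 h replicate 1 or sham replicate 3 the count was 3.

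Fewer genes of vascular tone and of stretch were called. Of 16 vascular tone and growth factor genes 3 were called higher and 1 lower, with 1 rise left without 0.5 h replicate 3 or without sham replicates 1 or 2. Nos3, the endothelial nitric oxide synthase, rose from 22.3, 26.4 and 23.9 CPM to 49.2, 41.5 and 44.0 CPM (0.89 ± 0.21, adjusted p = 0.0089), in all 3 libraries alike. Angpt1, which quiets endothelium through its receptor Tie2, fell from 65.2, 45.4 and 55.3 CPM to 26.2, 22.9 and 29.8 CPM (-1.07 ± 0.24, adjusted p = 0.00722), and its call held when any 1 library was left out. Edn1, a vasoconstrictor (1.30 ± 0.33), and Vegfa (0.49 ± 0.15) were the other called genes. The call on Vegfa was lost without any 1 library and that on Edn1 without 0.5 h replicate 3 or sham replicates 1 or 2. Among 16 stretch-responsive genes of heart muscle 3 were called: Tnfrsf12a (1.41 ± 0.31) and the natriuretic peptide genes Nppa, at 23.6, 16.4 and 7.28 CPM in sham and 37.6, 30.6 and 55.6 CPM at 0.5 h (1.38 ± 0.34), and Nppb, at 84.9, 84.1 and 43.6 CPM and 191, 118 and 213 CPM (1.30 ± 0.37). The natriuretic peptide calls were both lost without 0.5 h replicate 3 or sham replicate 3. That on Nppb was also lost without 0.5 h replicate 1, without sham replicates 1 or 2 and with the length trend removed. Myh7 and Ankrd1 were not called (0.027 and 0.058).

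Genes shared with the p53 pathway rose in part. Of 20 p53 targets and Gadd45 genes 11 were called higher and 0 lower, with a median log2 fold change of 0.71. The count was 7 without 0.5 h replicate 3 or sham replicate 1 and 6 without sham replicate 3. Several of these are immediate early genes as well (Btg2, Plk2, Plk3, Gadd45b and Gadd45g). Other members of the list, among them Mdm2, Ccng1 and Zmat3, were not called (-0.19, -0.37 and -0.025). The part of p53 in the rises was not tested. Cdkn1a, the cell cycle inhibitor, measured 117, 61.8 and 40.1 CPM in sham and 181, 109.8 and 154 CPM at 0.5 h (1.02 ± 0.32). The groups overlapped and the call was lost without 0.5 h replicates 1 or 3 or sham replicates 2 or 3.

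Ferroptosis, the process in the study's title, is an iron-dependent death by lipid peroxidation. Of 22 genes of ferroptosis defence 3 were called higher and 0 lower, and of 19 that promote it 3 were called higher and 2 lower, against 7.43% and 4.48% over all tested genes. Gpx4, the enzyme that reduces lipid peroxides, stood at 288, 303 and 319 CPM in sham and 381, 338 and 345 CPM at 0.5 h (0.23 ± 0.13, adjusted p = 0.274). Fancd2, a crosslink repair gene named in the study's title, stood at 0.449, 0.479 and 0.72 CPM and 0.838, 0.479 and 1.42 CPM (0.74 ± 0.74, adjusted p = 0.547), levels at which the groups overlapped. Of 20 Fanconi anaemia genes 0 were called by the main edgeR fit, DESeq2 or limma-voom (3 had an unadjusted p under 0.05). With the 6 compared libraries fitted alone 2 were called higher, and with scaling by library totals 1. Slc7a11, the cystine carrier, was 5.18-fold (exact 95% interval 1.07 to 49.3, 2 against 9 reads) lower and was not called (adjusted p = 0.193), and Hmox1, which breaks down heme, was at 7.58, 5.96 and 7.995 CPM and 12.7, 8.62 and 26.5 CPM (1.16 ± 0.46, adjusted p = 0.0977). Over the settings tried the adjusted p ran from 2.52e-10 to 0.501 for Hmox1 and from 0.0249 to 0.693 for Gpx4. Each was therefore called under some settings and not in the main fit. The 3 called defence genes were Hspb1, Ftl1, a light chain of the iron store ferritin (0.74 ± 0.19), and Slc3a2, which pairs with Slc7a11 (0.64 ± 0.17), of which Ftl1 and Slc3a2 lost their calls without 0.5 h replicates 1 or 3 or sham replicate 3. Among promoting genes Ptgs2, Chac1 (1.23, not called without 0.5 h replicates 1 or 3 or any 1 sham library) and Sat1, which starts the breakdown of polyamines, rose. Sat1 measured 25.6, 26.9 and 31.3 CPM in sham and 119.6, 61.6 and 180.4 CPM at 0.5 h (2.11 ± 0.27, adjusted p = 3.62e-05). Acsl4 (-0.44), which loads polyunsaturated fatty acids into phospholipids, and Cybb (-0.60), the phagocyte oxidase, were called lower, and neither call held without 0.5 h replicates 1 or 2 or without any 1 sham library. NRF2 targets gave 3 calls of 19, and 0 or 1 when any 1 library was left out.

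Messages of the mitochondrial genome fell. Of its 13 protein genes 8 were called lower and 0 higher, against 4.48% of all tested genes called lower, and the median log2 fold change was -0.57. The falls were in 6 complex I genes, in mt-Cytb and in mt-Co1, whereas mt-Co2, mt-Co3, mt-Atp6, mt-Atp8 and mt-Nd4l were not called, at log2 fold changes from 0.12 to 0.89. The complex I subunit mt-Nd5 measured 35892, 41988 and 45359 CPM in sham and 23866, 20102 and 22123 CPM at 0.5 h (-0.90 ± 0.18, adjusted p = 0.00389), with no overlap and little spread at 0.5 h. The subunit mt-Nd2 measured 28926, 30789 and 35399 CPM and 16502, 14655 and 15662 CPM (-1.02 ± 0.21, adjusted p = 0.0042). In ischemia replicate 3 the value of mt-Nd2 was at the level of the 0.5 h libraries and in ischemia replicates 1 and 2 at that of sham, as its values of 30440.0, 28890.0 and 14983 CPM show. Reads marked as duplicates made up 81.5% of the reads on mt-Nd2 and 78.0% on mt-Nd5, and with duplicates removed 2 of the 13 genes were called lower and the median was -0.0904. With duplicates removed the mitochondrial share itself was 7.29% ± 0.465 (SD, n = 3) at 0.5 h and 8.61% ± 0.892 in sham, p = 0.2 in the exact permutation test. The count of falls was 3 to 5 when any 1 of the 6 libraries was left out. Because counting by strand is not stated, reads of mt-Nd6, which lies on the strand opposite to the other 12 protein genes, are of uncertain origin.

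Nuclear genes for the respiratory chain and for ribosomes went the other way by small amounts. Of 46 nuclear respiratory chain subunits 16 were called higher and 0 lower, with a median log2 fold change of 0.23. Ndufb8, a complex I subunit, rose from 95.4, 102 and 91.2 CPM to 257, 232 and 223 CPM (1.30 ± 0.22, adjusted p = 0.000962), Atp5e, a subunit of ATP synthase, from 131, 134 and 113 CPM to 309, 269 and 293 CPM (1.20 ± 0.23), and Uqcrq, of complex III, from 264, 281 and 272 CPM to 577, 485 and 511 CPM (0.95 ± 0.20). Of 47 cytosolic ribosomal protein genes 23 were called higher and 0 lower, with a median of 0.47. Rpl38 stood at 19.2, 17.1 and 22.1 CPM in sham and 50.1, 39.5 and 44.3 CPM at 0.5 h (1.20 ± 0.21, adjusted p = 0.00111). The 3 libraries of 0.5 h were closer together than in the early genes: the highest exceeded the lowest by a median of 1.16 times in the called respiratory chain genes, 1.20 times in the ribosomal genes and 2.48 times in the 44 early genes. All 16 called respiratory chain genes and all 23 called ribosomal genes were highest in replicate 1. Without replicate 1 the counts were 9 and 11, without sham replicate 1 the respiratory chain count was 10, without sham replicate 2 the ribosomal count was 14, and without sham replicate 3 the counts were 10 and 13. Fabp3, the fatty acid carrier of heart muscle, was at 1409, 1395 and 1458 CPM in sham, 1495, 1957 and 2377 CPM after ischemia and 2934, 2524 and 2584 CPM at 0.5 h (0.92 ± 0.16, adjusted p = 0.00111). Fatty acid oxidation as a list gave 2 called rises among 24 genes, near the 7.43% called higher over all tested genes, and 1 without sham replicate 3. Ribosomal protein genes have many near-identical pseudogenes, so the split of their reads is uncertain.

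The change at 0.5 h ran with gene length. The median length was 1816 bases in the respiratory chain list and 1659 bases in the ribosomal list, against 3689 bases over all tested genes. The median log2 fold change was 0.185 in the shortest quartile of tested genes (up to 2169 bases; 548 called higher and 82 lower) and -0.149 in the longest quartile (from 5834 bases; 56 higher and 288 lower). The same medians with duplicates removed were 0.201 and -0.149. By library, the shortest quartile exceeded the longest by 0.391, 0.264 and 0.325 on the log2 scale in the 3 libraries of 0.5 h, relative to the sham mean, against 0.0273, 0.232 and 0.267 after ischemia and 0.817 in replicate 1 of 1 h, the highest of all 24. When the length trend of each library was removed, an alternative chosen after the data had been seen, 878 genes were called higher and 539 lower, the ribosomal count was 20 with a median of 0.29, and the respiratory chain count was 12 with a median of 0.139. Of the early lists, AP-1 and Maf then had 8 called rises and the other immediate early genes 21. What gives rise to the length trend was not tested.

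**Figure D4:**
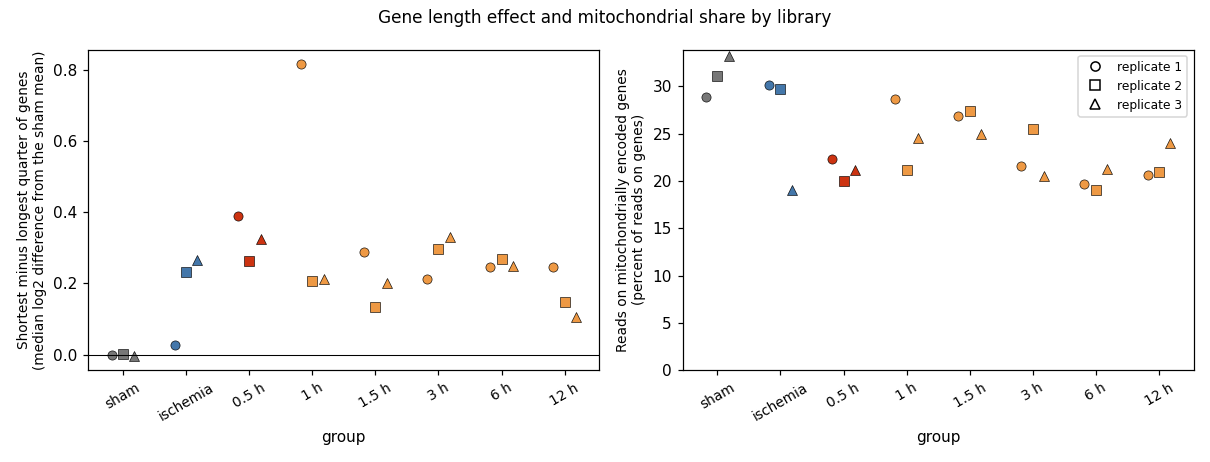
Left, the median log2 difference from the sham mean in the shortest quartile of genes minus that in the longest quartile, for each of the 24 libraries by group. Right, the percent of reads on mitochondrially encoded genes. The 0.5 h libraries lie at 0.264 to 0.391 on the left and 20.02% to 22.3% on the right, apart from all sham libraries, and ischemia replicate 3 lies near them in both panels, at 0.267 and 19.003%.

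Glycolytic and hypoxia-inducible genes gave 10 called rises and 0 falls among 32, from Gapdh (0.99 ± 0.22) and Higd1a (0.75 ± 0.17) down to Pgk1 (0.39). Pgam2, the phosphoglycerate mutase of muscle, went from 255, 276 and 282 CPM to 478, 422 and 406 CPM (0.68 ± 0.16, adjusted p = 0.00787), in all 3 libraries. Other targets of hypoxia-inducible factors were not called, among them the oxygen sensor Egln3 (0.14), Car9 (-0.10), Bnip3 (-0.068) and Slc2a1 (0.087). The count was 3 without 0.5 h replicate 1 and 6, 6 and 5 without sham replicates 1, 2 and 3.

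Some genes of calcium handling were called lower. Of 17 calcium handling genes 4 were called lower and 0 higher (4.48% and 7.43% over all tested genes), and 9 of the 17 had every 0.5 h library below every sham library, against 21.1% of all tested genes. Pln, which restrains the calcium pump of the sarcoplasmic reticulum, was at 6917, 7183 and 7038 CPM in sham and 4609.7, 4644 and 4824 CPM at 0.5 h (-0.59 ± 0.17, adjusted p = 0.0279). The calcium channel subunits Cacna2d1, at 313, 321 and 362 CPM and 203, 217 and 242 CPM (-0.59 ± 0.15), and Cacnb2 (-0.62 ± 0.16) and the calcium pump Atp2b1 (-0.36 ± 0.11) were the others. The median gene length of the list was 9848 bases. The count was 1 with the length trend removed (the call on Pln held and those on the other 3 were lost), and when any 1 of the 6 libraries was left out it was 0 to 2. The call on Pln was lost when any 1 of these libraries was left out and with duplicates removed. The release channel Ryr2 (-0.23), the exchanger Slc8a1 (-0.22) and the pump Atp2a2 (-0.036) were not called. Of 24 potassium and sodium channel genes 2 were called lower and 1 higher, near the shares over all tested genes. Kcnj3 (-0.65 ± 0.18) and Kcnd2 (-0.60 ± 0.16) were called lower and Kcnj8, a pore subunit of the ATP-sensitive channel, higher (0.46 ± 0.14). Each of the 3 calls was lost without 0.5 h replicate 1 and without sham replicate 3. Among 19 sarcomere genes there was 1 rise (Myl2, 0.49) and 1 fall (Nebl, -0.56), neither of them called when any 1 library was left out.

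The largest falls at 5 CPM or more, beside the mitochondrial transfer RNA genes, were in noncoding and little-known genes. AI480526, a long noncoding RNA, was at 9.95, 7.67 and 8.63 CPM in sham and 2.45, 2.99 and 1.07 CPM at 0.5 h (-2.01 ± 0.31, adjusted p = 0.000438). A330023F24Rik, whose exons hold the miRNA genes Mir29b-2 and Mir29c, was at 13.3, 13.4 and 15.99 CPM and 6.45, 2.87 and 6.39 CPM (-1.44 ± 0.29, adjusted p = 0.00389), already low after ischemia at 3.75, 4.45 and 8.56 CPM. Both overlap exons of other genes on the opposite strand, so their reads cannot be assigned for certain. Mmrn1, a multimerin of platelets and endothelium, fell from 19.97, 11.1 and 15.3 CPM to 4.90, 6.70 and 5.56 CPM (-1.43 ± 0.21, adjusted p = 0.000236), with no overlap. Of 22 tested long noncoding RNAs 1 was called higher (Snhg15, 0.92, not called when any 1 library was left out) and 3 lower (AI480526, Tug1 and Dnm3os). When any 1 library was left out the falls were 1 or 2, and with the length trend removed 1: Tug1 was lost without 0.5 h replicates 1 or 3 or sham replicates 1 or 3, and Dnm3os without 0.5 h replicates 1 or 2 or sham replicates 1 or 2. The abundant nuclear RNAs Malat1 and Neat1 were not called (-0.053 and 0.095). Of 19 clock genes only Hlf was called (lower, -0.91 ± 0.29), at 18.9, 23.2 and 49.9 CPM in sham and 15.98, 14.1 and 18.6 CPM at 0.5 h. This 1 fall among 19 was near the 4.48% called lower over all tested genes. The call on Hlf was lost without any 1 of the 0.5 h libraries and without sham replicate 3.

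Markers of resident cell types were called in both directions, against 7.43% higher and 4.48% lower over all tested genes. Endothelial markers gave 1 call among 12, Cldn5, a tight junction protein, at 23.8, 28.1 and 34.7 CPM in sham and 128, 76.4 and 107 CPM at 0.5 h (1.85 ± 0.38, adjusted p = 0.00442), while Pecam1 and Cdh5 were not called (-0.029 and 0.011). Fibroblast markers gave 1 rise (Pi16, 0.65) and 1 fall (Lum, -0.57) among 12, of which Lum was not called when any 1 library was left out and Pi16 only when that library was sham replicate 2. Of 10 smooth muscle and pericyte markers 1 was called higher (Kcnj8) and 1 lower (Rgs5), with a median log2 fold change of 0.011. Rgs5, the chief pericyte marker, fell from 811, 776 and 882 CPM to 505, 581 and 593 CPM (-0.56 ± 0.13, adjusted p = 0.00797), and its call was lost without 0.5 h replicate 1. Of 12 resident macrophage markers 3 were called higher (C1qa, C1qc and Folr2) and 1 lower (Mrc1). When any 1 of the 6 libraries was left out the rises came to 1 and the falls to 0. Of 8 monocyte markers Ccr2 and Ly6c2 were called lower, with at most 1 of them called when any 1 library was left out. Of the 16 ventricular muscle markers 3 were called higher (Fabp3, Cox6a2 and Myl2) and 1 lower (Pln), of which Fabp3 alone was called without 0.5 h replicate 1 or sham replicates 1 or 3.

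Of 5 tested mast cell markers 2 were called lower. Cma1, a mast cell chymase, went from 3.72, 3.22 and 2.24 CPM in sham to 0.902, 1.02 and 0.592 CPM at 0.5 h (-1.87 ± 0.45, adjusted p = 0.0103), and Cpa3, the carboxypeptidase of the same granules, from 4.69, 1.71 and 1.68 CPM to 1.16, 0.718 and 0.592 CPM (-1.72 ± 0.46, adjusted p = 0.019). The groups did not overlap in either gene, but both calls were lost without 0.5 h replicate 3, and Cpa3 also lost its call without 0.5 h replicate 2 or sham replicate 1. The list summed to 23.5 to 26.0 CPM in sham and 14.2 to 16.6 CPM at 0.5 h, with a median log2 fold change of -1.06. Mesothelial markers, from the surface of the heart, had a median of -1.28 over 7 genes, with 0 called by the main edgeR fit, DESeq2 or limma-voom and 1 at an unadjusted p under 0.05, and varied within groups, as Upk3b did at 10.6, 8.70 and 6.88 CPM in sham, 11.5, 0.283 and 5.98 CPM after ischemia and 2.96, 6.46 and 1.36 CPM at 0.5 h. Other edgeR settings called up to 1 of the 7 higher and up to 4 lower, and the 6 compared libraries alone gave 2 lower. None of the tested markers of T and NK cells (8), B cells (7), platelets (5), cardiac nerves (5), skeletal muscle (5), lung epithelium (2) or fat (1) was called by the main edgeR fit. With the 6 compared libraries fitted alone edgeR called 2 skeletal muscle markers higher, and with the length trend removed 1 B cell marker. At an unadjusted p under 0.05 there were 2 of T and NK cells, 3 of B cells and 2 of skeletal muscle, and DESeq2 and limma-voom each called 1 of skeletal muscle. Of 6 EGF receptor ligands 0 were called by the main edgeR fit, DESeq2 or limma-voom, with 2 at an unadjusted p under 0.05. The 6 compared libraries fitted alone gave 1 rise. On the lung list, 4 of 8 markers had 0 reads in all sham and 0.5 h libraries.

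**Figure D5:**
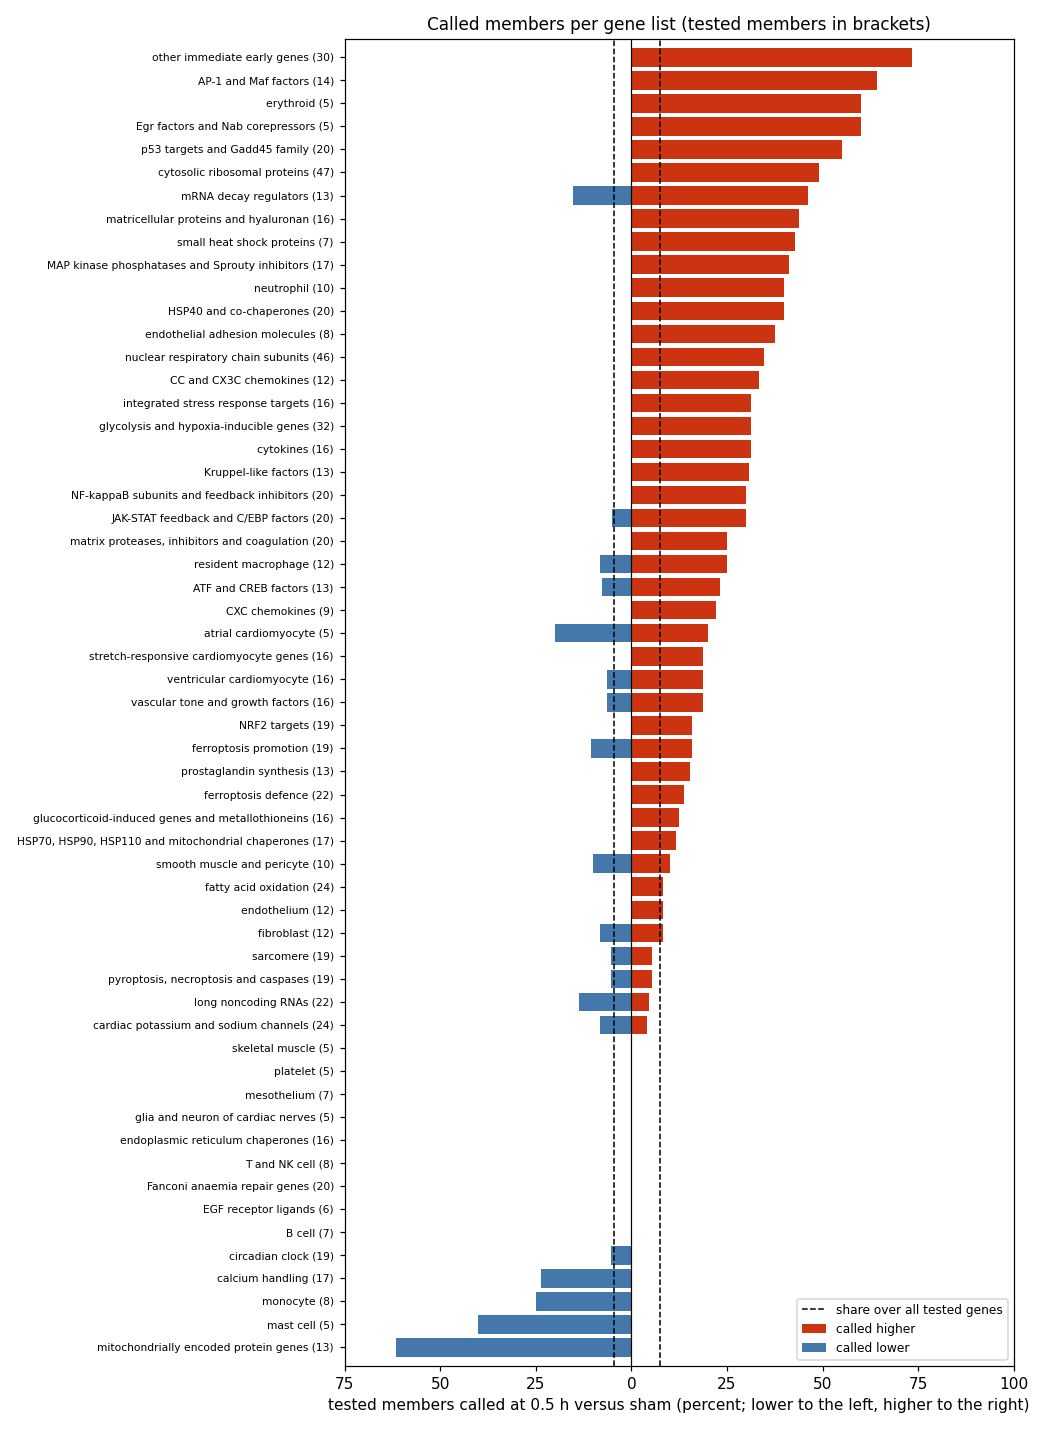
Share of tested members called higher (red, right) and lower (blue, left) at 0.5 h versus sham for every list with 5 or more tested members, whose number is in brackets. Dashed lines mark the shares over all tested genes, 7.43% higher and 4.48% lower. Immediate early and AP-1 genes lie at the top, and mitochondrially encoded protein genes, mast cell and monocyte markers at the bottom.

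The contrast with ischemia alone asks which genes differed after 0.5 h of flow on top of ischemia. The 0.5 h hearts were also taken 0.5 h later after the start of ischemia, so flow and elapsed time cannot be told apart. This contrast gave 5 called genes of 15128 (0.0331%), all higher at 0.5 h, and 0 lower, while 1871 genes had an unadjusted p under 0.05. The 5 were Hspa1b (7.17 ± 0.95, adjusted p = 0.000619), Hspa1a (6.21 ± 0.80, adjusted p = 0.000619), Jun (2.15 ± 0.35, adjusted p = 0.0106), Klf2 (1.55 ± 0.26, adjusted p = 0.0106) and Plekhh3 (0.91 ± 0.16, adjusted p = 0.0312). For each, all 3 libraries of 0.5 h lay above all 3 of ischemia, which is no separate support because this contrast picked the genes. Jun was at 81.9, 106 and 148 CPM after ischemia, and Plekhh3, a pleckstrin homology domain protein, at 11.3, 10.4 and 15.96 CPM after ischemia and 22.0, 24.5 and 24.4 CPM at 0.5 h. The most strongly induced AP-1 gene was not among them: Fosb measured 28.9, 96.6 and 97.5 CPM after ischemia (1.67 ± 0.56, adjusted p = 0.297), which overlapped with 0.5 h replicate 2, and Fos (1.88 ± 0.42, adjusted p = 0.0887) and Atf3 (1.95 ± 0.48, adjusted p = 0.147) were not called either. The number of calls turned on single libraries. It was 1156 (666 higher and 490 lower) without ischemia replicate 3, the library nearest to 0.5 h replicate 2, and 40 without 0.5 h replicate 2, but 2 without ischemia replicates 1 or 2 or without 0.5 h replicate 3. Both Hspa1 genes were called in each of these, whereas Jun and Klf2 lost their calls without ischemia replicates 1 or 2 and without 0.5 h replicate 3, and Plekhh3 without these and without 0.5 h replicate 1. DESeq2 called 59 genes in this contrast (43 higher and 16 lower) and limma-voom 4, all higher. The call on Hspa1b was lost in limma-voom, and all 5 calls were lost when the 6 compared libraries were fitted alone.

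Between 0.5 h and 1 h of reperfusion no gene was called by edgeR, DESeq2 or limma-voom, and 1003 genes had an unadjusted p under 0.05. Without 0.5 h replicate 3 the count was 3, and with no filter on low counts it was 159. In Fos and Hspa1a the 0.5 h libraries spread more widely than those of 1 h. Fos measured 897, 865 and 651 CPM and Hspa1a 285, 496 and 349.8 CPM at 1 h, ranges that 0.5 h replicate 3 reached and replicate 2 did not. Over the counts of tested genes the 1 h libraries were themselves unlike. By the chi-square per degree of freedom, 1 h replicate 1 lay 44.4, 72.4 and 51.9 from 0.5 h replicates 1, 2 and 3. The same values were 13.2, 16.4 and 5.43 for 1 h replicate 2, and 15.2, 21.9 and 11.2 for 1 h replicate 3.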

How the data were processed

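RNA was extracted with Trizol from frozen mouse hearts and made into libraries with the Illumina TruSeq kit, per the labels' protocols. The authors deposited raw counts of reads per Ensembl gene for each library, with gene length, and the genome build is mm10 per the submitters' processing notes. Per the file headers the counts are given for uniquely mapped reads and with multiply mapped reads, each with and without reads marked as duplicates, under the column names that dupRadar writes. Not given in the sources used here are the aligner, the counter, the strand setting, the annotation release and the duplicate marker. Without a stated strand, reads of overlapping genes cannot be assigned for certain; 56 of the 177 named genes share exon bases with another gene, 48 of them on the opposite strand.

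The counts of unique reads with duplicates kept were used. Samples were grouped by the treatment label, with 3 libraries in each of 8 groups. Symbols were found for 45143 of 46078 genes (98.0%). Genes were kept by filterByExpr in edgeR 4.0.16 (R 4.3.3; minimum count 10, minimum total 15), which left 15128 genes, and libraries were scaled by TMM factors of 0.858 to 1.16. A quasi-likelihood model with a term for each group was fitted to all 24 libraries (16 residual degrees of freedom, common coefficient of variation 0.156), and p-values were adjusted by Benjamini-Hochberg over all tested genes, with 0.05 as the threshold. The code was tested on simulated data. Single values of libraries were compared by exact permutation tests. Folds against groups with 1 to 3 reads are ratios of reads per total with exact 95% intervals that cover counting error only; reads have no molecular identifiers. Promoter windows (250 bases before and 50 after the start, 32851 windows of 27025 genes) are RefSeq's on GRCm38.p6 and were searched on both strands. The letters of the motifs are TGACG, TGACGTCA and GAANNTTC; the CArG box and the kappaB consensus are given by name.

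The libraries compared and the 61 gene lists were chosen with earlier results of these data known. Genes are named by a rule: the 16 largest called rises and 8 largest called falls with a mean of 5 CPM or more in the higher group, up to 4 called members per list with 1 CPM or more, up to 2 of the most abundant members of a list with no call, and Atf3, Fancd2, Gpx4, Ptgs2, Slc7a11 and Hmox1. Other members were named after their values were seen, to show which genes of a list were not called. Alternatives were DESeq2 1.42.0, limma-voom (limma 3.58.1), other scalings, filters and kinds of count, the 6 compared libraries alone, a replicate block, each library left out in turn, and, chosen after the data had been seen, removal of each library's trend with gene length. Python 3.11.15 with pandas 2.3.3, SciPy 1.17.1 and matplotlib 3.10.9 was used for summaries and figures.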

Additional observations from a re-analysis of the deposited data

Results flagged for a closer look

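In 5 genes the change at 0.5 h of reperfusion differed from the change after ischemia alone, both taken against the same sham libraries. The difference was tested in the edgeR fit as 0.5 h versus ischemia. The log2 difference was 7.167 for Hspa1b and 6.206 for Hspa1a, the inducible HSP70 genes, 2.148 for Jun, 1.548 for Klf2 and 0.9113 for Plekhh3. Every 0.5 h library lay above every ischemia library in each of the 5, which is no separate support because the same contrast picked them. Leaving out ischemia replicate 1 or 2 or 0.5 h replicate 3 ended the calls on Jun, Klf2 and Plekhh3.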

How the results depend on the processing

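Against sham, DESeq2 called 2185 genes and limma-voom 1683, and the count was 1979 with duplicates removed, 2012 with no filter, 1605 with the replicate block and 1417 (878 higher, 539 lower) with the length trend removed. The 6 compared libraries alone gave 3937 (2168 higher and 1769 lower), and scaling by library totals gave 230 falls. Leaving out 1 library left 603 to 1093 calls, 446 to 802 higher and 157 to 294 lower. Against ischemia, where 5 genes were called higher and 0 lower, DESeq2 gave 59 (43 and 16), removal of duplicates 15 (14 and 1), multiply mapped reads 8, no filter 329 (231 and 98), the 6 compared libraries 0, the length trend removed 1 lower, and 1 library left out 2 to 1156 (2 to 666 higher, 0 to 490 lower). From 0.5 h to 1 h, where 0 genes were called, no filter gave 159 (106 and 53) and 1 library left out 0 to 3. The cause of these shifts was not tested. The replicate block gave 12 calls against ischemia (11 and 1); same-numbered libraries did not deviate together (correlations -0.0384, 0.0118 and 0.043 for 0.5 h and sham, and -0.0947, -0.0462 and 0.022 for 0.5 h and ischemia), and not every library correlated best with its own number. Of the 177 named genes 97 had the same call under every setting, and none changed direction past a threshold. With the 150 bases nearest the start searched, TGACG stood in 28.6% of early gene windows, 35.3% of heat shock gene windows and 13.9% of all windows. The heat shock element then stood in 17.6% of heat shock gene windows and 3.94% of all windows. Messages with a few reads in sham, such as Il6 and Has1, are limited by counting error at this depth.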
